A study of Homo sapiens with 12 samples.

Results

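The module described here is the ATF4 amino acid response: the transcription factor ATF4 with its partners and targets in amino acid synthesis, amino acid transport and tRNA charging. Its members were listed by gene symbol, by a rule that uses no measured value although earlier results of these data were known when the list was drawn up, and 42 of the 22506 genes in the deposited count table belong to it. They fall into 6 transcription factors and cofactors, 5 stress effectors, 7 enzymes of serine, glycine, one-carbon and asparagine synthesis, 4 transsulfuration and mitochondrial carbon enzymes, 9 amino acid transporters and 11 cytosolic tRNA synthetases. RNA sequencing covered 12 libraries from 4 human lung cancer cell lines, which the series title describes as squamous cell carcinoma lines and which are called H1703, H1299, CHAGO and CALU in the labels, each sequenced once in 3 states. The first state was parental cells, which the labels call adherent, another tumor-initiating cells (TICs, a fraction with the capacity to start a tumor), and the last TICs with knockdown of PRKCI, the gene of the atypical protein kinase C iota. The sources used here do not give how TICs were obtained or how PRKCI was knocked down, and state and growth form cannot be told apart. The 4 lines are the replicates of a state (n = 4). Each state test is set against how much the difference between states varies from line to line. Nothing says how many cultures a library came from.

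ATF4 is the main transcription factor of the integrated stress response. When eIF2alpha is phosphorylated by GCN2, PERK or a related kinase, translation of most mRNAs slows while that of the ATF4 mRNA increases, so the ATF4 mRNA level is only a partial readout of the protein. ATF4 binds DNA as a dimer with C/EBP proteins and induces genes that make, import and charge amino acids. In lung cancer cells it is known for driving the serine synthesis enzymes PHGDH, PSAT1 and PSPH.

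The DNA element through which ATF4 acts is a composite C/EBP-ATF site, whose core was searched here as TGATGNAA on both strands. RefSeq promoters (GRCh38.p14, 250 bases before to 50 after an annotated start) were found for 34 of the 42 members, and 14 of these 34 genes (41.2%) held the core, beside 4.46% of all 27305 genes in the promoter table. Counted by promoter, 14 of 55 member promoters (25.5%) held it, beside 3.62% of all 35116 promoters of the same length. The core was present in 6 of 9 synthetase genes and 5 of 8 transporter genes with a promoter, and in 1 of 5 transcription factor genes, 1 of 5 effector genes, 1 of 4 genes of serine and asparagine synthesis and 0 of 3 transsulfuration and mitochondrial carbon genes. A match is a description of letters and says nothing of binding. The members were listed as ATF4 with its partners and targets, so their share is not independent of how they were chosen. The 14 sites are shown because the core was found most often in transporter and synthetase genes. Each is read 5′ to 3′ on the strand of the gene, with the core or its reverse complement in capitals.
CEBPG (chr19:33374060-33374089, plus strand): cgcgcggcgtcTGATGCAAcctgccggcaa
CHAC1 (chr15:40953251-40953280, plus strand): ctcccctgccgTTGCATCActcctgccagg
ASNS (chr7:97872458-97872487, minus strand): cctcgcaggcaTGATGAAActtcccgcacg
SLC3A2 (chr11:62881725-62881748, plus strand): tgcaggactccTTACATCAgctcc
SLC7A1 (chr13:29595663-29595692, minus strand): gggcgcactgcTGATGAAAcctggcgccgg
SLC1A4 (chr2:64989381-64989410, plus strand): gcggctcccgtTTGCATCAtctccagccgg
SLC1A5 (chr19:46784893-46784922, minus strand): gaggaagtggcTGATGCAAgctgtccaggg
SLC38A1 (chr12:46266502-46266531, minus strand): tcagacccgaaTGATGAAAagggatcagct
AARS (chr16:70289675-70289704, minus strand): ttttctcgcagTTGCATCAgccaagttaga
GARS (chr7:30594834-30594863, plus strand): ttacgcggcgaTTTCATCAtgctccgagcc
MARS (chr12:57488053-57488082, plus strand): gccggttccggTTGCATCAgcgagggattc
NARS (chr18:57621804-57621833, minus strand): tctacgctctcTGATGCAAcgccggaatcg
TARS (chr5:33440956-33440985, plus strand): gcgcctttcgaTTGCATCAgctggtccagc
IARS (chr9:92293692-92293721, minus strand): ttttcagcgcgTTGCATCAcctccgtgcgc

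In ASNS, asparagine synthetase, the first base of the core lies 68 bases before the annotated start, and the 250 bases before that start (chr7:97872409-97872658, minus strand) are printed as a long-studied promoter of this response. In CHAC1, a glutathione-degrading enzyme and a sensitive ATF4 target, the core lies 209 bases before the start, within the 250 bases at chr15:40953221-40953470 on the plus strand.
ASNS, bases before the start: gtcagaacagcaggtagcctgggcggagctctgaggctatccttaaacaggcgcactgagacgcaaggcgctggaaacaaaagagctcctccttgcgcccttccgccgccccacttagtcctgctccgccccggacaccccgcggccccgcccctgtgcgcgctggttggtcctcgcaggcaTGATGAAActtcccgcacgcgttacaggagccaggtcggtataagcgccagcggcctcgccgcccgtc
CHAC1, bases before the start: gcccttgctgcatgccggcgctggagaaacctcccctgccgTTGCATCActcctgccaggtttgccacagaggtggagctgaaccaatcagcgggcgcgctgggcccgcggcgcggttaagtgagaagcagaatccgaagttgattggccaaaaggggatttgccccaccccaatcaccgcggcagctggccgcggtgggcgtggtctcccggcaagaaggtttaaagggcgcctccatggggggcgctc

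Library size ran from 21.2 to 91.8 M counted reads and followed the line: the 6 libraries of H1703 and H1299 were the smaller ones. PRKCI stood at 199 to 608 CPM (reads of a gene per 1000000 counted reads after TMM scaling) in TICs and at 23.2 to 58.1 CPM in knockdown TICs, lower in each line. Markers of the described tumor type were uneven. The 10 epithelial markers summed to 0.463 to 5.36 CPM in H1703 and 26.1 to 42.6 CPM in H1299, but to 1816 to 2456 CPM in CHAGO and 230 to 701 CPM in CALU, and H1703 had no EPCAM or CDH1 read in any state. The 10 squamous markers summed to 103 to 297 CPM in parental cells, 171 to 661 CPM in TICs and 143 to 873 CPM in knockdown TICs, with PERP, which is not restricted to squamous cells, as the largest part in parental cells. Of the defining ones KRT5 reached at most 2.52 CPM and TP63 had no read in parental H1703 and H1299. Of the 4 squamous markers that passed the filter 4 were higher in TICs than in parental cells (median 1.98, 0 called by edgeR and 2 at an unadjusted p under 0.05), and their part in the module's values was not tested. The 10 leukocyte markers summed to 1.55 to 417 CPM in parental cells, 101 to 647 CPM in TICs and 151 to 810 CPM in knockdown TICs. Most of this was CD68, a lysosomal protein also made outside the blood lineage, except in parental CHAGO, where CD68 was at 0.0900 CPM, and ITGAM stood at 78.9 CPM in parental H1703. Of the other 8, CD3E, MS4A1 and FCGR3A had no read, PTPRC reached 0.704 CPM and CSF1R and CD14 reached 4.29 and 4.06 CPM. The 10 endothelial markers summed to 0.0727 to 45.5 CPM in parental cells, 0.0900 to 56.5 CPM in TICs and 0 to 36.2 CPM in knockdown TICs. The highest library of each state was CALU and the other lines reached at most 7.08 CPM. In CALU PECAM1 reached 45.0 CPM and KDR 26.3 CPM, while CLDN5 and EMCN had no read in any library. The part of these markers in the module's values was not tested. The 10 fibroblast markers summed to 517 to 1630 CPM in CALU, most of it COL1A1, and to at most 39.0 CPM in the other lines. In bulk RNA, fewer cells of a type and less RNA per cell cannot be told apart.

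All 42 members passed the filter on low counts. The parental H1299 library stood apart from the rest: 39 of 42 members were above their own 12-library mean there, with a median of 1.16 on the log2 scale. In the parental libraries of H1703, CHAGO and CALU that median was 0.29, 0.02 and 0.09. It was lowest in CALU, at −0.56 in TICs and −0.42 in knockdown TICs. The module as a whole was thus high in 1 parental library and low in 2 CALU libraries, with the other libraries of TICs and knockdown TICs between −0.33 and 0.32. Each comparison of states below is therefore also given without H1299, while the tests between lines are not.

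**Figure D1:**
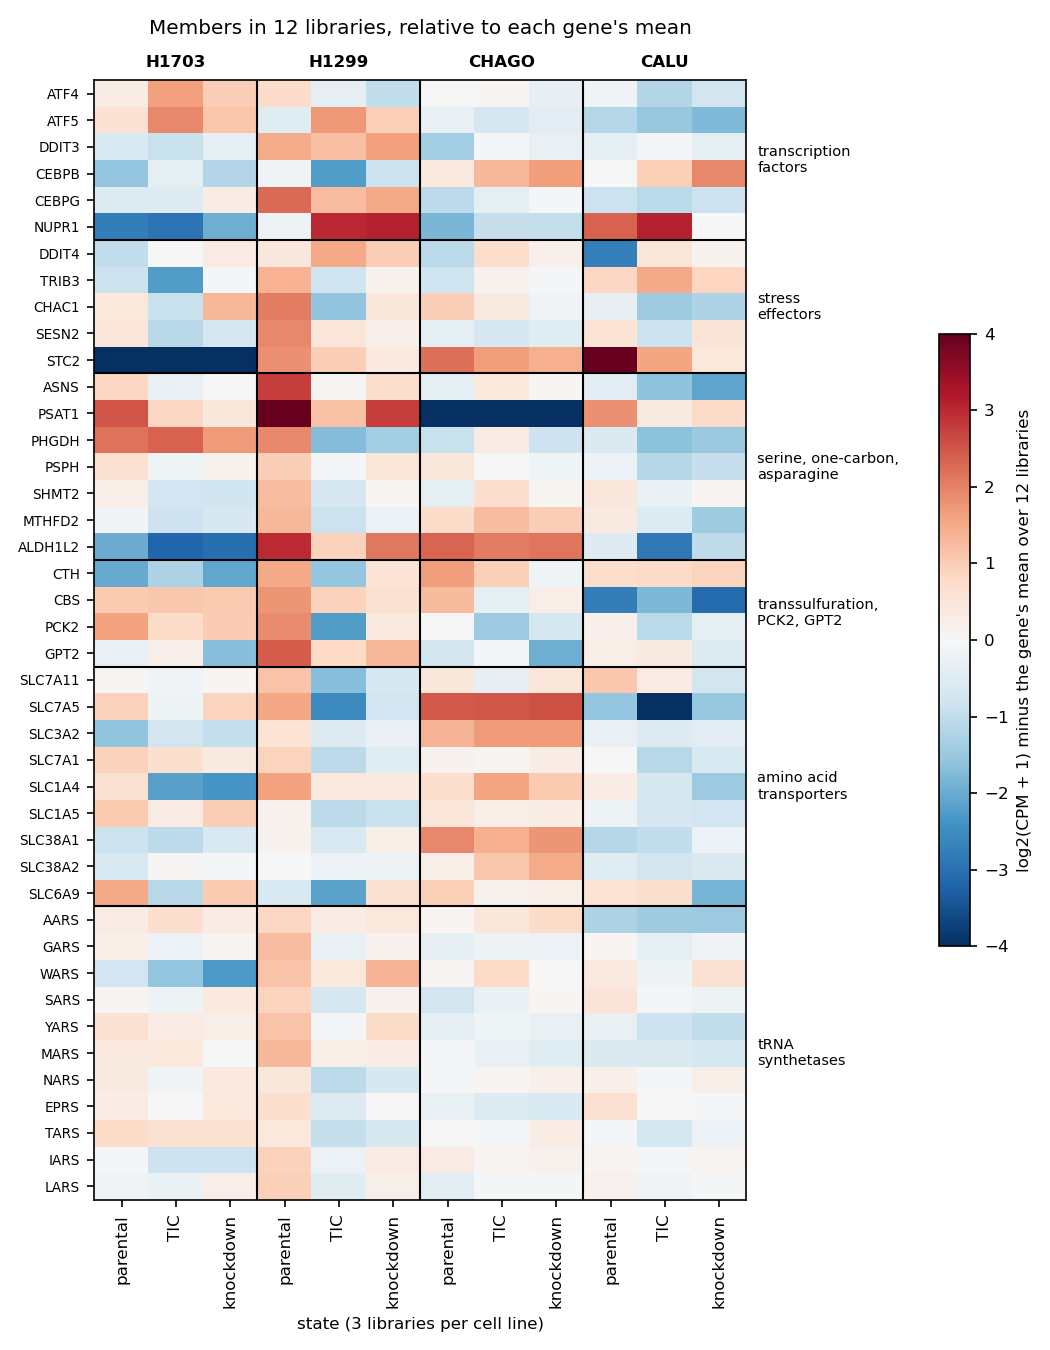
Heat map of log2(CPM + 1) for the 42 members (vertical axis, by role) in the 12 libraries (horizontal axis, by line and state), each value minus the gene's mean over the 12 libraries, with colors ending at 4 in either direction. The parental H1299 column is above the mean for most members. The STC2 cells of H1703 and the PSAT1 cells of CHAGO, with no read, are among the darkest blue.

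The first comparison asked how the module differs between TICs and parental cells. Serine synthesis, amino acid uptake and tRNA charging genes were mostly lower in TICs, while the transcription factors were mostly not. Of 42 members 34 were lower and 8 higher (81.0% lower, beside 51.3% of all 14008 tested genes), and the median log2 fold change was −0.56, beside −0.02 for all tested genes. By edgeR's quasi-likelihood test with Benjamini-Hochberg adjustment 0 members were called at 0.05, beside 0.0286% of all genes (4 genes). None of these differences thus stood out, after adjustment, from its variation between lines. At an unadjusted p under 0.05 there were 19 members, 18 of them lower, beside 11.8% of all genes (6.06% lower and 5.73% higher). DESeq2 called 6 members, beside 3.65% of all genes, namely DDIT4 higher and PSAT1, PSPH, ALDH1L2, PCK2 and SLC7A5 lower, and limma voom and limma on the mode-normalized values each called 0. The same direction in all 4 lines was shown by 11 members lower and 1 higher, beside 8.97% and 8.32% of all genes. The CPM ranges of TICs and parental cells overlapped for every member, beside 1.57% of all genes without overlap.

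The lines did not take equal part. The median difference of log2 CPM over the members with at least 10 reads in both libraries together was −0.28 for H1703, −1.41 for H1299, 0.11 for CHAGO and −0.52 for CALU. Of the members so measured 39 of 42 were lower in H1299, 31 of 42 in CALU and 27 of 40 in H1703, while 23 of 41 were higher in CHAGO. Without the H1299 line 27 members were lower with a median of −0.22, and without its parental library alone 28 were lower with a median of −0.28. Without CHAGO 37 were lower and the median was −0.74. The size of the shift thus depended on the H1299 parental library, and its direction was the same without it.

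Among the transcription factors 4 of 6 were higher in TICs (median 0.28), none at an unadjusted p under 0.05. ATF4 itself was read at 125, 167, 102 and 90.9 CPM in parental H1703, H1299, CHAGO and CALU, at 320, 78.4, 108 and 44.5 CPM in their TICs and at 202, 50.9, 79.7 and 59.4 CPM in their knockdown TICs. It was higher in TICs of H1703 and lower in those of H1299 and CALU, so the groups overlapped. The fitted log2 difference, −0.24 (standard error 0.39, edgeR adjusted p = 0.863), became 0.13 without H1299. ATF5, a related factor linked to the mitochondrial stress response, was higher in TICs of H1703 (219 against 89.1 CPM) and H1299 (192 against 40.4 CPM) but not in those of CHAGO (35.6 against 46.8 CPM) or CALU (19.5 against 25.3 CPM) (log2 fold change 0.64, standard error 0.42, edgeR adjusted p = 0.606). DDIT3, which encodes the stress factor CHOP, was at 7.96, 37.7, 4.35 and 9.81 CPM in parental cells and 6.48, 30.6, 12.1 and 12.5 CPM in TICs, with a log2 fold change of 0.29 (standard error 0.40, edgeR adjusted p = 0.833) that was −0.06 without CHAGO. H1299 was the highest line for DDIT3 in each state. NUPR1, a small stress-induced chromatin protein, had the widest uncertainty of this group, with 1.26 on the log2 scale (standard error 1.0). CEBPB and CEBPG, the C/EBP partners, gave 0.26 and −0.18.

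The stress effectors split, with DDIT4 higher and the others lower (median −1.43, 4 of 5 lower). DDIT4, an inhibitor of mTORC1 that also responds to hypoxia and glucocorticoids, was read at 34.2, 95.0, 32.0 and 9.46 CPM in parental H1703, H1299, CHAGO and CALU and at 70.6, 199, 113 and 97.9 CPM in their TICs. It was the one member higher in TICs of all 4 lines, from 42.7 ± 36.6 to 120 ± 55.5 CPM (SD, n = 4), 3.33-fold, with a log2 fold change of 1.73 and a standard error of 0.39 (edgeR adjusted p = 0.188). The H1299 parental value lay inside the TIC range, so the groups overlapped. CHAC1 went the other way in all 4 lines, from 5.53, 19.0, 8.51 and 2.86 CPM to 1.58, 0.613, 5.19 and 0.809 CPM (log2 fold change −2.13, standard error 0.88, edgeR adjusted p = 0.373). SESN2, a leucine sensor that restrains mTORC1, was also lower in all 4 lines (−1.52, standard error 0.64, edgeR adjusted p = 0.39). STC2, a secreted glycoprotein, was lower in the 3 lines that express it (log2 fold change −1.43, standard error 0.52), most in CALU, from 491 to 86.3 CPM. TRIB3, a pseudokinase that binds ATF4, was lower in H1703 and H1299 and higher in CHAGO and CALU (−0.52, standard error 0.85), and its sign turned to 0.26 without H1299.

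All 7 genes of serine, one-carbon and asparagine synthesis were lower in TICs in the fit (median −1.07), 5 of them at an unadjusted p under 0.05, and 0 of 7 passed adjustment. In CHAGO 4 were higher and 2 lower, and 2 of the 7 were lower in all 4 lines. PSAT1, the aminotransferase of the serine pathway, was at 168, 466 and 105 CPM in parental H1703, H1299 and CALU, at 51.3, 66.4 and 37.2 CPM in their TICs and at 39.5, 202 and 49.4 CPM in their knockdown TICs, with no read in CHAGO. In each of the 3 lines that express it the TIC value was below the parental one, with differences of −1.49 to −2.81 on the log2 scale. This was the smallest adjusted p of the module (log2 fold change −1.94, standard error 0.38, 3.83-fold lower, edgeR adjusted p = 0.184). PSPH, the phosphatase of the last step, was lower in all 4 lines, from 49.0, 63.9, 44.4 and 27.0 CPM to 28, 30.8, 32.7 and 14.0 CPM. The difference lay between −0.44 and −1.05 in each line, with a fitted value of −0.81 and a standard error of 0.25 (edgeR adjusted p = 0.27). PHGDH, the first enzyme of the pathway, did not follow it. Its level went from 33.6 to 1.78 CPM in H1299 and from 5.21 to 1.94 CPM in CALU, but from 40.3 to 46.4 CPM in H1703 and from 3.96 to 10.4 CPM in CHAGO. The fitted −1.07 had a standard error of 0.86 (edgeR adjusted p = 0.687) and became 0.09 without H1299.

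ASNS was read at 306, 1156, 133 and 123 CPM in parental H1703, H1299, CHAGO and CALU, at 139, 175, 229 and 54.8 CPM in their TICs and at 170, 277, 175 and 38.7 CPM in their knockdown TICs. The parental H1299 library was the highest of the 12, and TICs were lower than parental cells in 3 lines and higher in CHAGO (log2 fold change −1.14, standard error 0.45, edgeR adjusted p = 0.358, and −0.58 without H1299). The mitochondrial folate enzymes SHMT2 and MTHFD2 showed the same line pattern, higher in CHAGO TICs and lower in the other lines (−0.69 and −0.87). ALDH1L2, the mitochondrial formyltetrahydrofolate dehydrogenase, had the largest fitted difference of the module, −2.68 (standard error 0.88, edgeR adjusted p = 0.283). It was lower in TICs of all 4 lines, at 15.9 CPM against 69.8 in H1299, 35.7 against 43.7 in CHAGO and 0.229 against 5.24 in CALU, and H1703 had no read in TICs against 34 in parental cells.

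Of the 4 transsulfuration and mitochondrial carbon enzymes 2 were lower and 2 higher. PCK2, mitochondrial phosphoenolpyruvate carboxykinase, was lower in all 4 lines, from 51.9, 62.7, 16.2 and 18.7 CPM in parental cells to 27.9, 2.65, 5.28 and 7.07 CPM in TICs. The group means were 37.4 ± 23.5 and 10.7 ± 11.6 CPM (SD, n = 4), 3.88-fold lower in the fit (log2 fold change −1.96, standard error 0.55, edgeR adjusted p = 0.237). CTH and CBS, the enzymes that turn homocysteine into cysteine, and GPT2, the mitochondrial alanine aminotransferase, gave −0.30, 0.16 and 0.08. CTH was at 0.678 CPM in TICs against 13.2 in parental cells of H1299 and at 7.41 against 6.97 CPM in CALU, and its sign turned to 0.49 without H1299.

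**Figure D2:**
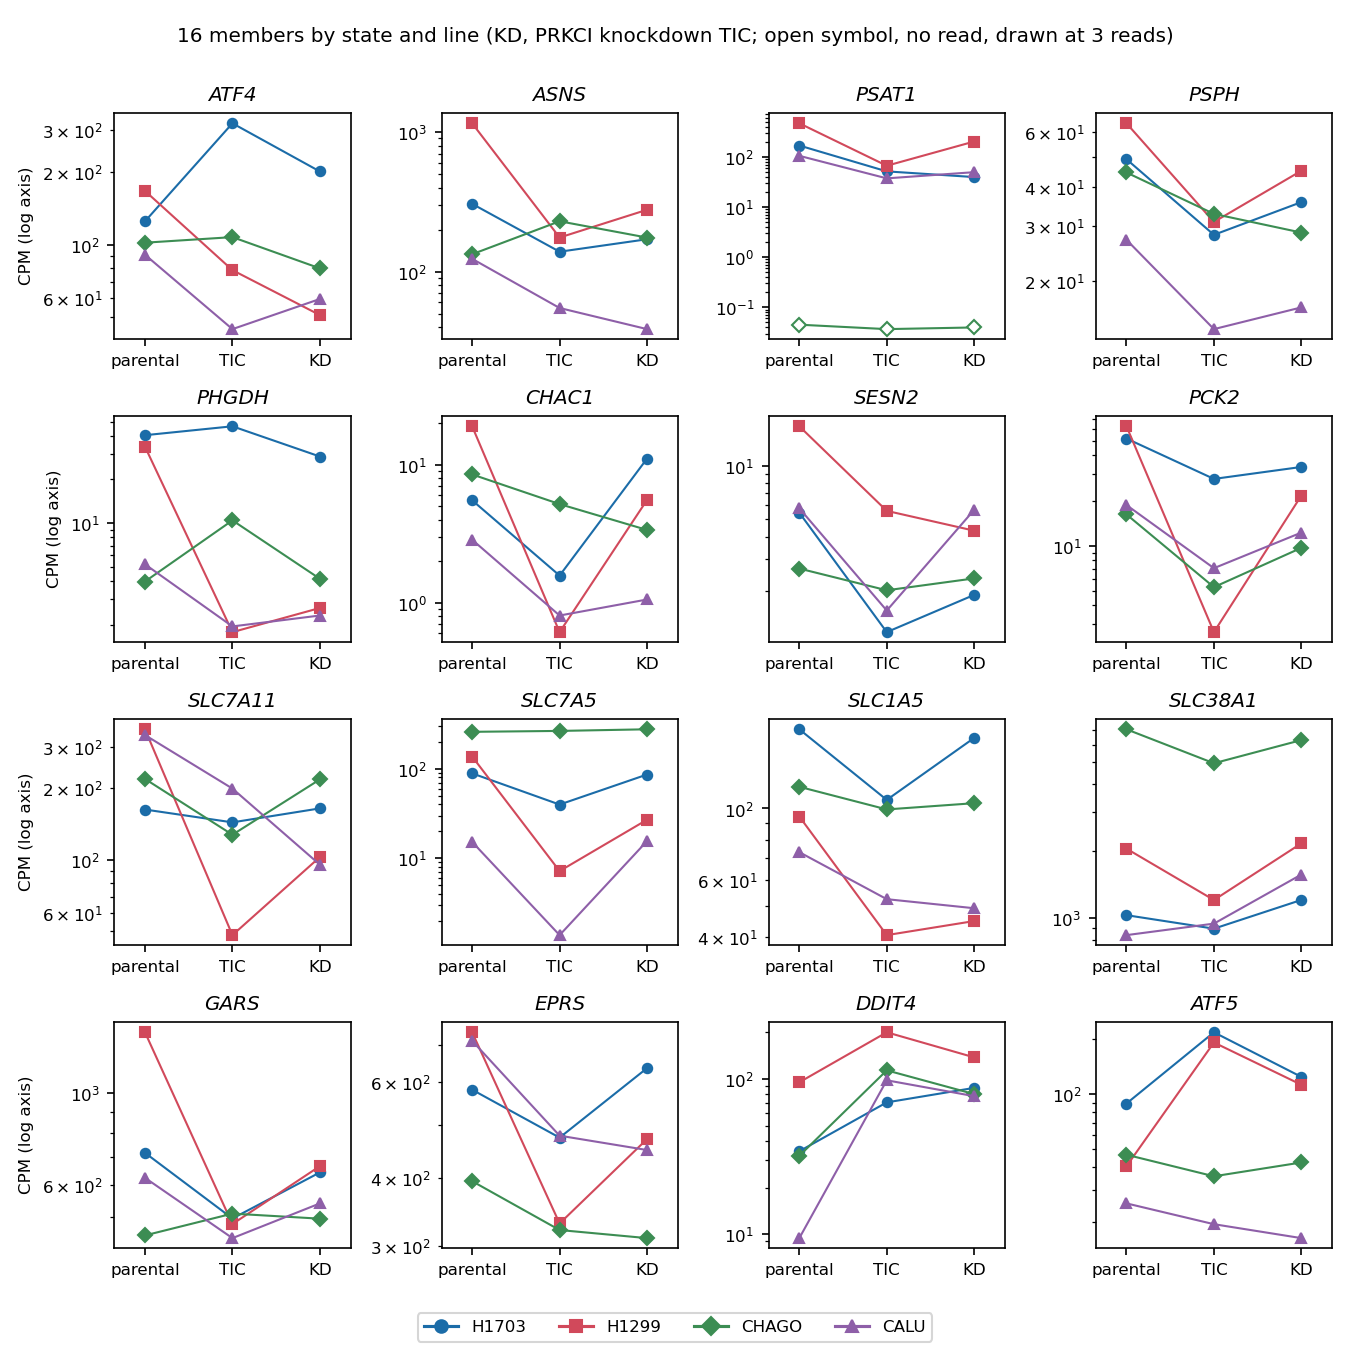
CPM on a log axis for 16 members (1 panel each) in parental cells, TICs and PRKCI knockdown TICs, with 1 line per cell line and 1 library per point, open symbols marking libraries with no read drawn at the level of 3 reads. PCK2, CHAC1, SESN2, PSPH, SLC7A11, SLC1A5 and EPRS are lower in TICs than in parental cells of all 4 lines, DDIT4 is higher in all 4, and ATF4 and ATF5 part by line.

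Among the 9 transporters 8 were lower in TICs in the fit (median −0.87), 4 of them at an unadjusted p under 0.05. SLC7A5, the light chain of the large neutral amino acid exchanger LAT1, was at 88.9, 137, 259 and 15.2 CPM in parental H1703, H1299, CHAGO and CALU and at 39.8, 7.17, 265 and 1.38 CPM in their TICs. The difference of log2 CPM was −4.25 in H1299 and −3.43 in CALU, but 0.03 in CHAGO, the line with most of it (fitted −2.12, standard error 0.73, edgeR adjusted p = 0.308). Its heavy chain SLC3A2 did not share this and gave −0.04 with a standard error of 0.32. SLC7A11, the cystine importer xCT and another partner of SLC3A2, was lower in all 4 lines, from 163, 355, 219 and 335 CPM to 144, 48.3, 128 and 200 CPM (−1.15, standard error 0.45, edgeR adjusted p = 0.351). SLC1A5, the glutamine carrier ASCT2, and SLC7A1, the arginine carrier, were also lower in all 4 lines, with −0.67 (standard error 0.23, edgeR adjusted p = 0.297) and −0.87 (standard error 0.30, edgeR adjusted p = 0.298). For SLC1A5 the TIC values of 106, 40.5, 99.3 and 52.4 CPM stood against 176, 94.4, 117 and 73.2 CPM in parental cells. SLC1A4, the alanine and serine carrier, was lower in 3 lines and higher in CHAGO (−1.26). The abundant system A carriers SLC38A1 and SLC38A2 differed little, at −0.34 and 0.22.

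All 11 cytosolic tRNA synthetases were lower in TICs in the fit, by small amounts (−0.02 to −0.61, median −0.52), 5 of them at an unadjusted p under 0.05 and 0 called. By line, 11 of 11 were lower in H1299 (median −1.23), but 7 of 11 were higher in CHAGO. Only 3 of 11 were lower in all 4 lines. With DESeq2 size factors and with the mode-normalized values AARS was higher, which left 10 of 11 lower, and with the latter SLC3A2 was higher too, which left 7 of 9 transporters lower. GARS, the glycyl-tRNA synthetase, was read at 716, 1401, 452 and 623 CPM in parental H1703, H1299, CHAGO and CALU and at 496, 481, 510 and 445 CPM in their TICs. The TIC values were close together while the parental ones were spread, with H1299 far above the rest (−0.61, standard error 0.24, edgeR adjusted p = 0.36). EPRS, the glutamyl-prolyl enzyme, and IARS, the isoleucyl enzyme, were lower in all 4 lines, each with −0.59 and a standard error of 0.19 (edgeR adjusted p = 0.283 and 0.278). EPRS went from 581, 740, 395 and 714 CPM to 474, 330, 321 and 478 CPM. AARS, the alanyl enzyme, ran from −0.55 in H1299 to 0.39 in CHAGO on the log2 scale. WARS, the tryptophanyl enzyme, is also an interferon-induced gene. In H1299, where the 30 interferon-stimulated genes went from a sum of 453 CPM in parental cells to 4452 in TICs and 7079 in knockdown TICs, WARS was at 203, 122 and 237 CPM, and the part of interferon in these values was not tested.

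**Figure D3:**
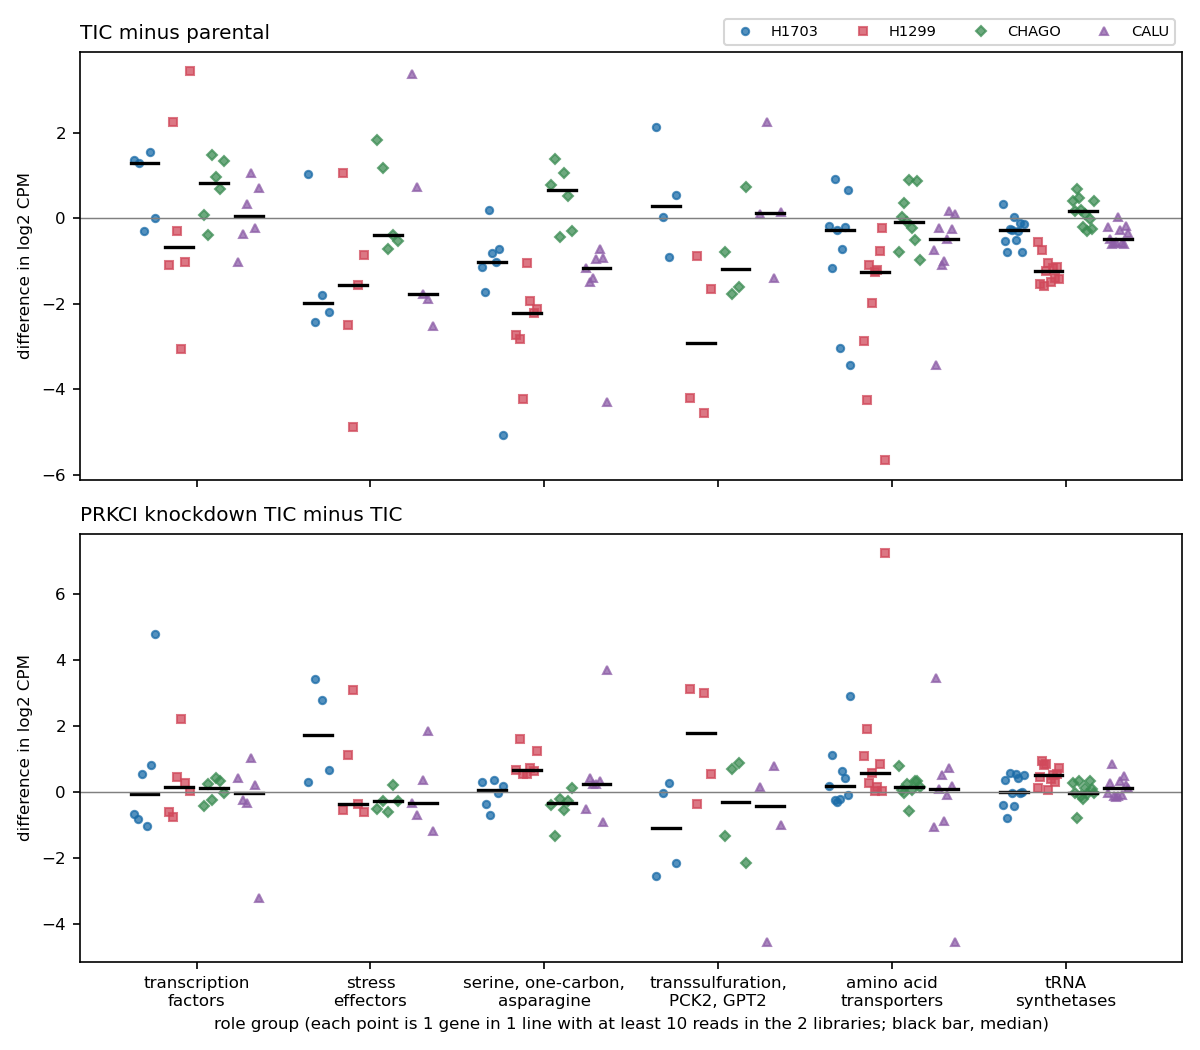
Difference of log2 CPM between states (vertical axis) for each member with at least 10 reads in the 2 libraries of a line, by role group (horizontal axis) and line, with black bars at the median over the genes of a group. In the upper panel all 11 synthetases and all 9 transporters of H1299 lie below 0, and in CHAGO the synthetase median is 0.18; in the lower panel the H1299 medians of serine enzymes, transporters and synthetases lie at 0.66, 0.58 and 0.51.

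The second comparison asked what PRKCI knockdown does to the module in TICs. Of 42 members 29 were higher (49.1% of all tested genes were), with a median of 0.20 beside −0.01 for all tested genes. Among them were 8 of 9 transporters and 9 of 11 synthetases, or 6 of 9 and 7 of 11 without H1299. By edgeR 0 members were called, beside 0.0143% of all genes, and DESeq2 called 0, beside 0.0785% of all genes, as did limma voom and limma on the mode-normalized values. At an unadjusted p under 0.05 there were 2 members, 1 higher and 1 lower, beside 4.28% of all genes (2.08% higher and 2.2% lower), so the share of members was close to the background. The same direction in 4 lines was shown by 6 members higher and 0 lower, beside 7.23% and 7.14%. No member had CPM ranges that separated the 2 groups, beside 0.764% of all genes. The difference was again largest in H1299, where 36 of 42 members were higher (median 0.54). In H1703, CHAGO and CALU the median was 0.19, −0.02 and 0.14, and without H1299 the fitted median was 0.09 with 23 members higher. This comparison and the first share the TIC libraries, and each TIC value enters both with opposite sign.

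SLC38A1, a glutamine carrier of system A, was higher after knockdown in all 4 lines, from 897, 1206, 4957 and 946 CPM in TICs of H1703, H1299, CHAGO and CALU to 1208, 2168, 6299 and 1570 CPM in knockdown TICs. The fit gave 0.59 (standard error 0.19, edgeR adjusted p = 0.98). GPT2 was lower after knockdown in 3 lines, with 4.17 against 18.5 CPM in H1703, 3.42 against 15.2 in CHAGO and 10.5 against 20.9 in CALU, and higher in H1299 with 41.5 against 28.5 CPM. The fit gave −1.29 (standard error 0.47, edgeR adjusted p = 0.98). Neither difference passed adjustment over all genes. SLC7A5 gave 1.43 (standard error 0.69), ALDH1L2 1.45 (standard error 0.83) and PCK2 1.0 (standard error 0.53), each higher in 4 of 4 lines with an edgeR adjusted p = 0.98. For ALDH1L2 in H1703 this rested on 3 reads after knockdown against 0 in TICs, under the limit of 10 reads used for line medians. SLC7A5, ALDH1L2 and PCK2 were among the lowest in TICs against parental cells, and the same TIC values enter here. Other members low there gave other values: PSAT1 gave 0.53 and was lower in H1703, and STC2 gave −0.59, lower in 3 lines. In CALU, SLC7A5 went from 1.38 CPM in TICs to 15.5 CPM after knockdown, beside 15.2 CPM in parental cells. CHAC1 was higher in H1703 and H1299, from 1.58 to 11.1 and from 0.613 to 5.56 CPM, but lower in CHAGO (1.26, standard error 0.88). ASNS, ATF4, PHGDH, DDIT3 and TRIB3 gave −0.05, −0.35, −0.55, 0.07 and 0.61, and the signs of ASNS, DDIT3 and TRIB3 turned when a line was left out. SLC7A11 gave 0.22, higher in 3 lines and lower in CALU, from 200 to 95.5 CPM. CEBPG and NARS, the asparaginyl enzyme, completed the members higher in all 4 lines, at 0.42 and 0.34.

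The third comparison set knockdown TICs against parental cells, which shares its libraries with the other comparisons. Here 33 of 42 members were lower, with a median of −0.44 beside −0.05 for all genes. By edgeR 0 members were called, beside 0.0357% of all genes, and 9 had an unadjusted p under 0.05 (8 lower and 1 higher), beside 10.7% of all genes (5.29% lower and 5.45% higher). DESeq2 called 2, DDIT4 and STC2, beside 2.86% of all genes, and limma voom and limma on the mode-normalized values called 0. The same direction in 4 lines was shown by 8 members lower and 2 higher, beside 9.11% and 8.1%, and no member separated the groups in CPM, beside 1.66% of all genes. All 7 serine, one-carbon and asparagine genes were lower in the fit (median −1.20), as were all 4 transsulfuration and mitochondrial carbon genes (−0.95). All 11 synthetases were lower in the fit too (−0.28), 10 with DESeq2 size factors and 9 with the mode-normalized values. The lines again differed, with member medians of −1.08 for H1299, −0.58 for CALU and −0.09 for H1703. CHAGO had a median of 0.07, with 22 members higher and 19 lower. There 7 of 11 synthetases were higher. Of its serine, one-carbon and asparagine genes 4 were higher and 2 lower, while all 4 transsulfuration and mitochondrial carbon genes were lower. Only 1 synthetase, MARS, was lower in all 4 lines. DDIT4 stood at 87.5, 137, 79.7 and 77.4 CPM in knockdown TICs of H1703, H1299, CHAGO and CALU, above the parental value in each line (log2 fold change 1.46, standard error 0.39, edgeR adjusted p = 0.232). STC2 reached −2.03 (standard error 0.53, edgeR adjusted p = 0.244), with 37.8, 77.1 and 38.3 CPM in knockdown TICs of H1299, CHAGO and CALU against 104, 134 and 491 CPM in parental cells. PSAT1 gave −1.41 (standard error 0.38) and SLC1A4 −1.71 (standard error 0.58), with edgeR adjusted p = 0.25 and 0.328. Without the H1299 parental library the median was −0.25, and without the whole H1299 line −0.29, with 27 members lower in either case.

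More members differed between cell lines than between states. In the same fit 27 of 42 members (64.3%) differed between lines by edgeR's quasi-likelihood F test at an adjusted p of 0.05, beside 45.4% of all genes, and 32 by DESeq2, beside 56.5%. The 3 libraries of a line are 1 source in 3 states, so this describes these 4 lines and not a kind of lung cancer. The called share was 6 of 7 for the serine, one-carbon and asparagine genes, 5 of 6 for transcription factors, 6 of 9 for transporters, 6 of 11 for synthetases, 2 of 4 for transsulfuration and mitochondrial carbon genes and 2 of 5 for stress effectors. The median range between the highest and lowest line was 1.95 on the log2 scale for all members, near the 2.0 for all tested genes. Synthetases had the narrowest spread of the role groups, with a median range of 0.90.

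Some members had few or no reads in single lines. The members below were named for their wide range over lines, and such gaps were not counted over all genes. PSAT1 had no read in any of the 3 CHAGO libraries, while the lowest other line, CALU, held 63.8 ± 36.0 CPM (SD over 3 states), at least 1417-fold more at the limit of 3 reads per library. CHAGO thus expressed PHGDH (6.18 ± 3.70 CPM) and PSPH (35.2 ± 8.25 CPM) without detectable mRNA of the enzyme between them. STC2 had no read in the 3 H1703 libraries, beside 66.4 ± 34.0 CPM in H1299, the lowest other line, at least 491-fold more. ALDH1L2 was at 0.451 ± 0.683 CPM in H1703 and 2.97 ± 2.54 CPM in CALU against 41.2 ± 27.1 in H1299 and 39.3 ± 4.08 in CHAGO (edgeR adjusted p = 0.00171). CBS was nearly absent from CALU, at 0.609 ± 0.791 CPM, and stood between 11.7 and 19.0 CPM in the other lines (edgeR adjusted p = 0.0211). NUPR1 was near 0 in H1703 (0.383 ± 0.542 CPM), at 2.41 ± 1.06 CPM in CHAGO, and at 43.8 ± 33.0 and 36.4 ± 28.4 CPM in H1299 and CALU (edgeR adjusted p = 0.00691).

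**Figure D4:**
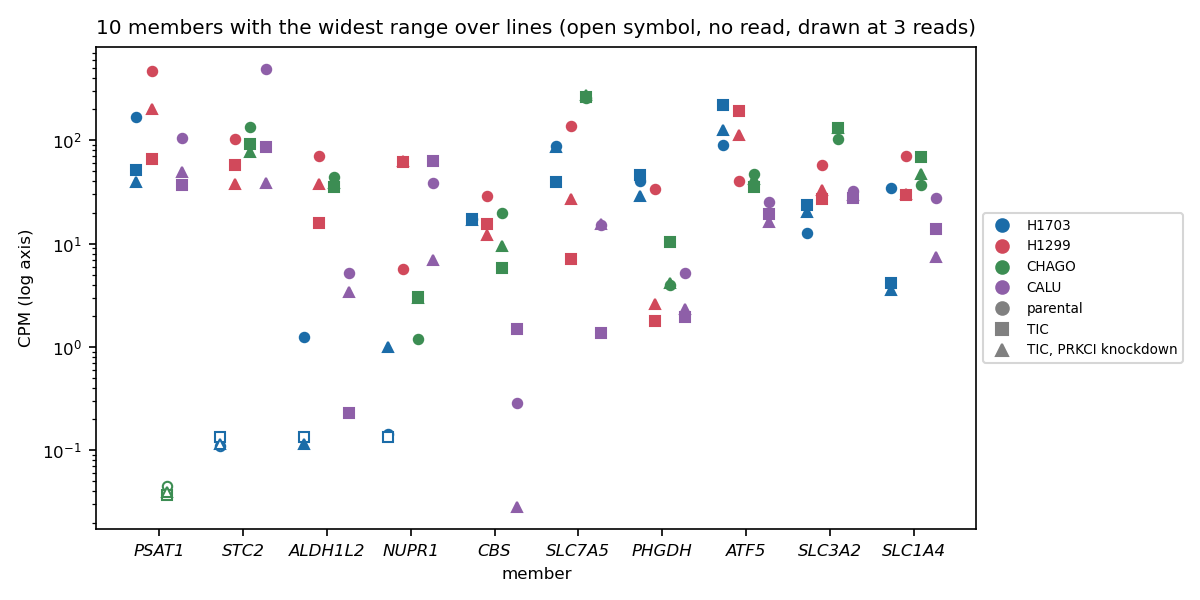
CPM on a log axis for the 10 called members with the widest range over lines (horizontal axis), 1 point per library, colored by line with the symbol giving the state and open symbols for libraries with no read, drawn at the level of 3 reads. The open CHAGO symbols of PSAT1 and the open H1703 symbols of STC2 mark lines with no read in any state, and SLC7A5 is highest in all 3 CHAGO libraries.

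The called members overlapped between lines: STC2, for example, was called higher in H1299, CHAGO and CALU, and PSAT1 in H1703, H1299 and CALU. Each line was set against the mean of the others, so the low values of STC2 in H1703 and of PSAT1 in CHAGO entered the differences of every other line. In H1299 13 members were called higher than the mean of the other lines and 1 lower, beside 11.2% and 5.65% of all genes. The higher ones included DDIT3 (2.03, standard error 0.34), CEBPG (2.28, standard error 0.25), ASNS (1.63, standard error 0.39) and GPT2 (2.30, standard error 0.41). These tests were not repeated without the high parental H1299 library, and the median over all members in H1299 TICs was −0.33. ASNS was at 1156 CPM in parental H1299 but at 175 CPM in its TICs, below the 229 CPM of CHAGO TICs. CEBPG was at 921, 451 and 547 CPM in the 3 H1299 libraries and at 90.7 to 235 CPM in the other 9, so the line separated in every state. In CHAGO 9 were called higher and 2 lower, beside 17.5% and 10.9%, so the higher share was near the background, and 5 of the 9 were transporters. SLC38A1 held 6099 ± 1056 CPM in CHAGO against 1046 to 1808 CPM on average elsewhere, a difference of 2.27 (standard error 0.16, edgeR adjusted p = 1.65e-05). SLC7A5 and SLC3A2, the chains of LAT1, were both highest there, at 267 ± 8.86 and 122 ± 16.3 CPM. In H1703 9 were called higher and 8 lower, beside 12.9% and 12.6%. The higher ones were ATF4 (1.42, standard error 0.35) and ATF5 (1.58, standard error 0.35), with PSAT1, PHGDH, PCK2, SLC7A1, SLC1A5, AARS and TARS. For ATF4, H1703 was the highest line in TICs and knockdown TICs but not in parental cells, at 125 CPM against 167 CPM in H1299. PHGDH was at 38.5 ± 8.98 CPM in H1703 and at 3.15 to 12.7 CPM on average in the other lines (edgeR adjusted p = 0.0228 over the 4 lines). In CALU 3 were called higher and 12 lower, beside 16.2% and 9.27%. AARS was lowest there in every state, at 115 ± 9.82 CPM against 406 to 435 CPM (difference −1.86, standard error 0.22), and SLC7A5 stood at 10.7 ± 8.08 CPM.

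After the mean of each line was removed, the median Pearson correlation over the 861 pairs of members in the 12 libraries was 0.423, beside 0 over pairs of all tested genes. Within the serine, one-carbon and asparagine genes it was 0.783 and within the synthetases 0.709, while within the transcription factors it was 0.0676. GARS, SLC7A1 and ASNS lay closest to the median of the other members, with correlations of 0.970, 0.921 and 0.934, and ATF4 was at 0.452. ATF5, DDIT4 and NUPR1 ran opposite, at −0.814, −0.523 and −0.346. All points share their library's scaling, and the H1299 parental library lay far from the rest, so these are descriptions of 12 libraries. The reads of 10 members could be split with a pseudogene named after them in GENCODE 29 (among them ATF4, ASNS, PSAT1, PSPH, MTHFD2, SLC7A5 and GARS), and 16 members overlap an exon on the opposite strand, DDIT3 and MARS each other. Whether counting used strand is not given in the sources used here, so these values carry that uncertainty.

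Members with and without the ATF4 element core had similar medians; the difference between them was not tested. In TICs against parental cells the 14 members with the core had a median of −0.58 and all 14 were lower in the fit (AARS was higher with DESeq2 size factors, and AARS and SLC3A2 with the mode-normalized values), while the 20 without it had a median of −0.52 and 14 were lower. Core and role cannot be told apart here: 6 of 9 synthetase genes and 5 of 8 transporter genes held the core, but 1 of 5 transcription factor genes did. After knockdown the medians were 0.21 and 0.10, and 10 of 14 and 12 of 20 were higher. Against parental cells, knockdown TICs gave −0.38 and −0.49. Low values stood on both sides: CHAC1, with the core, gave −2.13, and SLC7A5, PCK2 and PSAT1, with no core in these windows, gave −2.12, −1.96 and −1.94.

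**Figure D5:**
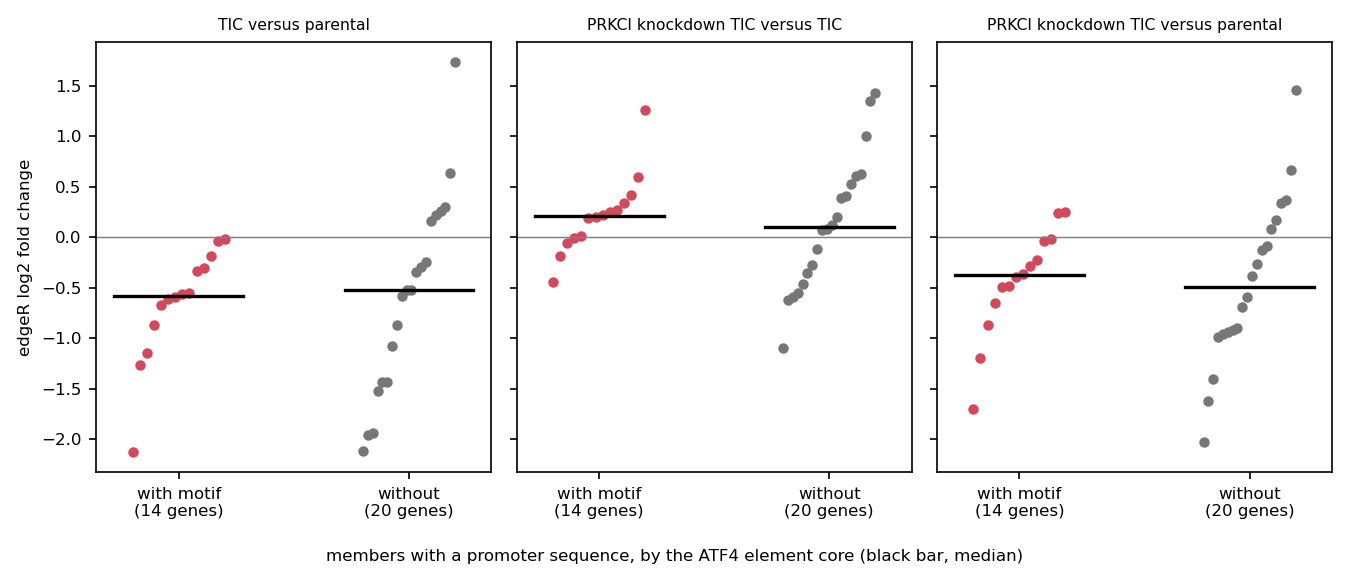
edgeR log2 fold change (vertical axis) of the 34 members with a RefSeq promoter, split by presence of the TGATGNAA core (14 with, 20 without), in the 3 comparisons, with 1 point per gene and black bars at the medians. In TICs against parental cells all 14 points with the core lie below 0 (AARS lies above it with DESeq2 size factors, and AARS and SLC3A2 with the mode-normalized values), with a median of −0.58 beside −0.52 without it.

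The rest of the pathway gave the surrounding picture in TICs against parental cells. Of 18 genes of eIF2 kinases, eIF2, eIF2B and the eIF2alpha phosphatases 12 were lower (median −0.27), with EIF2B1, a subunit of the exchange factor, at −0.88 and PPP1CB, a catalytic phosphatase subunit, at 0.48. Further ATF4 targets were mixed, with 8 of 15 tested lower (median −0.29): MTHFD1L, the mitochondrial formate enzyme, gave −0.77 and CLIC4 0.73. The other cytosolic synthetases and their complex proteins leaned with the members, 9 of 12 lower (median −0.28), led by FARSB, the phenylalanyl beta subunit, at −0.90 (standard error 0.27). Of 17 mitochondrial synthetases 12 were lower (median −0.32), with MARS2 and YARS2 lower in all 4 lines at −0.96 and −0.77. Cytosolic folate and related enzymes were lower in 15 of 17 (median −0.56). There MTHFD1, the cytosolic trifunctional folate enzyme, gave −0.97 (standard error 0.22, edgeR adjusted p = 0.188) and was lower in all 4 lines. The other 20 tested amino acid transporters were lower in 9 and higher in 11, with a median of 0.04. None of these lists had a gene called by edgeR.

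Values of other programs in TICs against parental cells are set beside the module, and none of their genes was called by edgeR. The 20 proliferation genes were all lower in TICs in the fit (20 of 20, median −1.12, 0 called and 14 at an unadjusted p under 0.05), with line medians of −0.51 in H1703, −1.37 in H1299 and −2.46 in CALU, while CHAGO had a median of 0.38. Their summed level was 4527 to 6650 CPM in parental cells and 1147 to 6724 CPM in TICs. The lines thus ran in the same direction as the module's line medians, and the part of proliferation in the module's values was not tested. The other arms of the unfolded protein response were mostly not lower: 15 of 20 ATF6 and XBP1 targets were higher (median 0.22), with SYVN1, EDEM1 and DNAJB9, all genes of ER-associated degradation or ER chaperoning, at 1.80, 1.06 and 0.85 and higher in all 4 lines. Of 19 hypoxia genes 16 were higher (median 0.68), including P4HA2 and BHLHE40 at 2.23 and 2.26, each higher in all 4 lines, as was the hypoxia-responsive member DDIT4. Of 18 NRF2 targets 14 were higher (median 0.27), while SLC7A11, which is on both lists, was lower. Hypoxia, growth form and state cannot be told apart here.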

How the data were processed

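RNA sequencing of 12 libraries from 4 lung cancer lines in 3 states was used. Per the submitters' processing notes, the tools were CASAVA 1.4, TopHat 1.4 and HTSeq 0.5.3p3 with the build hg19; whether counting used strand is not given in the sources used here. The deposited count table holds raw read counts for 22506 genes, 4044 of them with no read. The deposited mode-normalized values are a score: they lie within 1 of the count times a factor per library for 99.97% of values.

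Counts were analysed in R 4.3.3 with edgeR 4.0.16 (filterByExpr, TMM, robust quasi-likelihood test), with state and line as terms, 6 residual degrees of freedom and a biological coefficient of variation of 0.699. P-values were adjusted by Benjamini-Hochberg over 14008 genes, with a threshold of 0.05. Those of the state tests set a difference against its variation between these 4 lines, with line differences in level removed. Those of the line tests set line differences against the same residual variation. The standard error was taken as the absolute log2 fold change divided by the root of F. Log2 CPM used a prior count of 2. Line was a block because libraries of a line come from the same cell line, per the labels. Deviations from the state means correlated at 0.553 to 0.760 in the 12 same-line pairs. In the 36 pairs of different line and state they correlated at −0.414 to −0.0601, but subtracting the state mean itself pushes these values below 0. DESeq2 1.42.0, limma 3.58.1 (voom, and log2 of the mode-normalized values plus 1), other size factors, other filters, no block and leaving out each line were alternatives. The tests were checked on simulated data.

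Depth was 21.2 to 91.8 M reads, and 3 reads was the limit set by a count of 0; it covers counting error only. The members and gene lists were chosen with earlier results of these data known. The rule for named members took ATF4, DDIT3, ASNS, CHAC1, TRIB3, PHGDH and SLC7A11, the 2 members of smallest unadjusted p in each role group, the 3 largest among those with 1 direction in 4 lines, and, between lines, the 10 of widest range; from other lists, up to 3 genes of smallest unadjusted p. The values of 2 such genes are not reported here. Other members named were chosen after their values were seen. Parental cells with PRKCI knockdown were not analysed here. Promoter sequences and their coordinates are from RefSeq (GRCh38.p14) and overlaps from GENCODE 29; no coordinates of hg19 are given.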

Additional observations from a re-analysis of the deposited data

Results flagged for a closer look

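Within a state, 1 line stood far from the other 3 in 16 of 126 groups of 4 libraries (12.7%), over 12 members; the test takes the gap to the nearest library over the whole range against the 95% limit of Dixon, and chance gives such a gap in about 1 in 20 groups. Over all tested genes 16.9% of groups had such a gap, so the share among members was below that background. H1299 gave 7 of the 16, CHAGO 6, H1703 2 and CALU 1. In H1299 the high values were DDIT3 at 37.7 CPM in parental cells and 42.0 CPM in knockdown TICs, CEBPG at 921 CPM in parental cells and 451 CPM in TICs, GPT2 at 89.2 CPM in parental cells, and NUPR1 at 63.8 CPM and DDIT4 at 137 CPM in knockdown TICs. For DDIT3 the next highest line was at 9.81 and 10.3 CPM, and for CEBPG at 132 and 148 CPM.

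In CHAGO they were the transporters SLC7A5 at 265 CPM, SLC3A2 at 132 CPM and SLC38A1 at 4957 CPM in TICs, SLC3A2 at 130 CPM and SLC38A2 at 13875 CPM in knockdown TICs, and MTHFD2 at 289 CPM in TICs. NUPR1 reached 38.9 CPM in parental CALU, where the next line was at 5.72 CPM. In knockdown TICs of H1703, PHGDH was high at 28.8 CPM and SHMT2 was low at 43.2 CPM, beside 78.0 CPM in the next line.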

How the results depend on the processing

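The count of genes called moved with the tool. The state tests had 4 lines and 6 residual degrees of freedom, and state differences varied widely between lines. The part of these in the counts was not tested. In the state tests edgeR called few genes. For TICs against parental cells it called 4 genes, DESeq2 511, limma voom 10, the mode-normalized values 43, a fit on only the 2 groups compared 0, and fits leaving out a line or the H1299 parental library 0 to 0. For knockdown TICs against TICs it called 2, DESeq2 11, voom 1, the mode-normalized values 1, the filter of 5 CPM in 4 libraries 0, the 2 groups alone 0, and fits leaving out a line or the CALU knockdown library 0 to 1. For knockdown TICs against parental cells it called 5, DESeq2 size factors gave 8, DESeq2 400, the mode-normalized values 20, the 2 groups alone 0, and fits leaving out libraries 0 to 2. DESeq2 called 6 and 2 members against parental cells in TICs and knockdown TICs, and no other alternative called a member; the cause was not tested. The mode-normalized values moved the median of all genes in the first comparison from −0.02 to 0.11 and that of the members from −0.56 to −0.45, with 32 lower.

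Without the replicate block, which pairs libraries of a line, 0 genes were called in each state comparison, the members with an unadjusted p under 0.05 fell from 19, 2 and 9 to 3, 0 and 0, and the sign turned for ATF4 (0.18, first comparison), ASNS (0.15, knockdown TICs against TICs) and TRIB3 (−0.23, knockdown TICs against parental cells).

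Leaving out a line or library gave member medians of −0.74 to −0.22, 0.09 to 0.25 and −0.51 to −0.25 in the 3 comparisons, and turned single members. In the first, ATF4 ran from −0.71 to 0.16, TRIB3 from −1.20 to 0.26, PHGDH from −1.94 to 0.0922, CTH from −1.31 to 0.49 and DDIT3 from −0.0563 to 0.50. In the second, ASNS ran from −0.19 to 0.13, DDIT3 from −0.0625 to 0.22 and TRIB3 from −0.16 to 1.25, and ASNS was 0.0376 by voom and 0.0185 with the 2 groups alone. In the third, TRIB3 ran from −0.36 to 0.80, and NUPR1 was −0.0372 by voom. The number of members that differed between lines ran from 23 to 32 over all alternatives. The fits without 1 library, of parental H1299 or of knockdown CALU, were chosen after seeing the data. Depth limits single values such as NUPR1 and CTH in H1703, with 0 to 26 and 4 to 24 reads per library.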

Other observations

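After PRKCI knockdown, other genes of the pathway outside the module gave values of their own. Of the 18 genes of eIF2, its kinases, its exchange factor and its phosphatases 13 were higher in knockdown TICs than in TICs, with a median of 0.09 on the log2 scale, and 0 were called by edgeR. EIF2S1, the eIF2alpha subunit itself, was higher in 4 of 4 lines, with 0.54 (standard error 0.18). PPP1R15A, the stress-induced partner of the eIF2alpha phosphatase and an ATF4 pathway target, gave 1.25 (standard error 0.53), higher in 3 lines and lower in H1299. PPP1R15B, its constitutive counterpart, gave 0.43 (standard error 0.19), higher in 4 of 4 lines. Of the 12 other cytosolic synthetases and complex proteins 6 were higher and 6 lower (median −0.003). Among them AIMP2, a scaffold of the multisynthetase complex, gave 0.82 (standard error 0.34), higher in 4 of 4 lines. Of the 17 mitochondrial synthetases 13 were higher and 4 lower (median 0.20). Against that direction HARS2, the mitochondrial histidyl enzyme, gave −0.73 (standard error 0.27), lower in 4 of 4 lines. Each of these named genes had an edgeR adjusted p = 0.98. None of their differences thus stood out from its variation between lines after adjustment over all genes.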
